A study of Mus musculus with 6 samples.

Results

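Transcripts of the adult myosin heavy chains Myh7, Myh2, Myh1 and Myh4 and of myoglobin (Mb) were measured in the soleus of suspended C57Bl/6 mice. The genes were chosen by symbol, and all 5 were on the array with 1 probe each, among 223 probes in all, which name 203 genes. Each of the 5 was above 0 on all 6 arrays, as were 171 of the 223 probes. The 6 samples form 1 group: soleus, a slow postural hindlimb muscle, of mice whose hindlimbs were kept from bearing weight by suspension, hybridised from 3 microgram of total RNA of cryosections. The titles carry the codes HUR, wt and HS7, which the labels do not explain, and give no age, sex or duration. No unsuspended animals were analysed here, so the values describe suspended muscle and no effect of suspension. The labels do not say that each array came from another animal, so the spread between arrays may be partly technical.

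Myosin heavy chains are the motor proteins of the thick filament, and the isoform a fibre makes sets its contraction speed. Myh7 encodes the slow, type I chain, which heart muscle also makes. Myh2, Myh1 and Myh4 encode the fast chains of type IIa, IIx and IIb fibres, in order of increasing shortening speed. Myoglobin binds oxygen in the cytoplasm of oxidative fibres and gives red muscle its colour. In rodents the soleus is known as a slow and oxidative muscle, and disuse is known to favour fast over slow isoforms.

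The 3 fast genes lie side by side in the RefSeq gene table in the order Myh2, Myh1 and Myh4, between Myh3 and Myh8, which encode developmental chains. Myh7 and Mb lie on other chromosomes. The 250 bases before the start site are shown because the fast genes share a stretch there. Whether it bears on their levels was not tested. Levels, as defined further on, correlated at r = 0.993 for Myh2 with Myh1, 0.652 for Myh2 with Myh4 and 0.624 for Myh1 with Myh4. Without replicate 1 these values were 0.958, -0.443 and -0.471. The sequences are from RefSeq, build GRCm38.p6, on the strand of the gene, 5′ to 3′. They cover chr11:67170777-67171026 (+) for Myh2, chr11:67199852-67200101 (+) for Myh1 and chr11:67237562-67237811 (+) for Myh4. For Myh7 and Mb they cover chr14:54994627-54994876 (-) and chr15:77022788-77023037 (-). The table has 2 start sites for Myh7 and 3 for Mb, and 1 of each is shown. Capitals mark the longest stretch common to the fast genes, and in Myh7 and Mb the letters CCACCC.
Myh2: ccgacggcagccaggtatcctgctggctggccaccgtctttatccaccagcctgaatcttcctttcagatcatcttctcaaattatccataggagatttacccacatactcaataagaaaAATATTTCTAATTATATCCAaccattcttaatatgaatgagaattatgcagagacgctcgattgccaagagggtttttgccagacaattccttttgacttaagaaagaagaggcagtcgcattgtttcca
Myh1: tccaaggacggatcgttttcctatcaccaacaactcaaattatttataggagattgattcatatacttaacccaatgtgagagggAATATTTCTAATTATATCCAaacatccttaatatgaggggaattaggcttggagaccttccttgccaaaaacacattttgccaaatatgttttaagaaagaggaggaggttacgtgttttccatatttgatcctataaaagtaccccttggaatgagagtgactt
Myh4: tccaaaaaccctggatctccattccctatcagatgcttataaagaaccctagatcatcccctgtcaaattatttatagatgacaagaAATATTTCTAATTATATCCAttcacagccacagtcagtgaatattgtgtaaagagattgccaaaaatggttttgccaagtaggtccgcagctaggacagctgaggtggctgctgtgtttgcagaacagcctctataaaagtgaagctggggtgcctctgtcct
Myh7: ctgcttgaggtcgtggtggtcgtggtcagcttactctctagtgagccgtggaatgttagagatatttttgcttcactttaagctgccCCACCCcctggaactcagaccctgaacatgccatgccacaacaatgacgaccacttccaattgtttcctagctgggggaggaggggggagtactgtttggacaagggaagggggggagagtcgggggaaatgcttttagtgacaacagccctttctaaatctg
Mb: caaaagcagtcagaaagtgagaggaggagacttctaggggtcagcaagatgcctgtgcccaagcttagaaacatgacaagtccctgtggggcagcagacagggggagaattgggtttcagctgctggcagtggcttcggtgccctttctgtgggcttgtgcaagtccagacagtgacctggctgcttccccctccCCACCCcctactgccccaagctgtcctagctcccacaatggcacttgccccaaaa

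The stretch shared by the fast genes, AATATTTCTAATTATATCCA, is 20 bases long and starts 130 bases before the start site of Myh2, 165 before that of Myh1 and 163 before that of Myh4. Searched on both strands, it was found in 3 of the 32851 RefSeq promoters (0.00913%) over the same 250 bases. Those 3 are these genes, from which it was taken. CCACCC was found once each in Myh7 and Mb and in none of the fast genes, and 28.1% of all promoters hold it. TATAAA, which 12.4% hold, was found at 32 bases before the start site of Myh1 and at 31 before that of Myh4, besides other positions. A match to the MEF2 consensus, present in 2.92% of promoters, was found in Myh1 and Myh4, and it overlaps a TATAAA on the opposite strand in both and none of the capitals. The CArG box (1.47% of promoters) was found in Myh4, and CANNTG (66.2%) in Myh4, Myh7 and Mb. These matches describe letters and not bound sites.

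Replicate 1 stood apart before any gene was considered. Its deposited intensities summed to 37.5, against 15.3 to 18.5 on the other arrays, and over the 171 probes it correlated less with the rest (r of 0.857 to 0.911) than they did with each other (0.957 to 0.977). Results are therefore given with and without it. Intensities are linear and background-subtracted, on a scale that the sources used here do not give. A level below is the log2 intensity minus the array's median over the 171 probes, so that a probe at 0 has the median brightness of its array and a step of 1 means a doubling. Sizes of levels and ratios between probes depend on the probes as well as on the transcripts, and only their variation between arrays is read. The probe sequences were not used here, so signal from 1 heavy chain on the probe of another cannot be told apart, the genes being close relatives.

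Slow heavy chain transcript was measured far above background on every array. The Myh7 intensity was 2.13 on replicate 1, 0.555 on replicate 2, 0.726 on replicate 3, 0.790 on replicate 4, 0.778 on replicate 5 and 0.586 on replicate 6. Replicate 1 was the highest and did not overlap the others, at 3.10 times their mean of 0.687 ± 0.110 (SD, n = 5). As a level, Myh7 was at 7.53 on replicate 1, and elsewhere it lay from 6.21 to 6.57. In whole muscle, fewer fibres of a type and less RNA per fibre cannot be told apart.

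Of the fast chains, Myh2 (type IIa) varied most. Its intensity was 0.334 on replicate 1, 0.0807 on replicate 2, 0.0619 on replicate 3, 0.0631 on replicate 4, 0.0818 on replicate 5 and 0.0431 on replicate 6. Replicate 1 was at 5.06 times the mean of the others, which was 0.066 ± 0.016 (SD, n = 5), and replicates 2 and 5 were the next highest. Its level reached 4.86 on replicate 1, against 2.69 to 3.43 elsewhere. The lowest Myh2 intensity was 43.1 times the size of the most negative value on its array, so that even the dimmest of the 5 probes was well clear of the subtracted background.

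Myh1 (type IIx) and Myh4 (type IIb) varied less. Myh1 had intensities of 1.45, 0.686, 0.643, 0.767, 0.731 and 0.496 on replicates 1 to 6. Myh4 had intensities of 0.692, 0.276, 0.343, 0.389, 0.359 and 0.328 on the same arrays. Replicate 1 was again highest for both, at 2.18 and 2.04 times the mean of the others. Without it the intensity averaged 0.665 ± 0.105 for Myh1 and 0.339 ± 0.042 for Myh4 (SD, n = 5 each), and the 5 levels spanned 6.25 to 6.51 and 5.20 to 5.66.

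Myoglobin, the oxygen store, had the smallest excess on replicate 1. Its intensity was 1.44 on replicate 1, 0.711 on replicate 2, 0.828 on replicate 3, 0.761 on replicate 4, 0.662 on replicate 5 and 0.683 on replicate 6. Replicate 1 was at 1.97 times the mean of the others, 0.729 ± 0.067 (SD, n = 5), the smallest such factor among the 5 genes. The plot of intensity by array shows these values together.

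**Figure D1:**
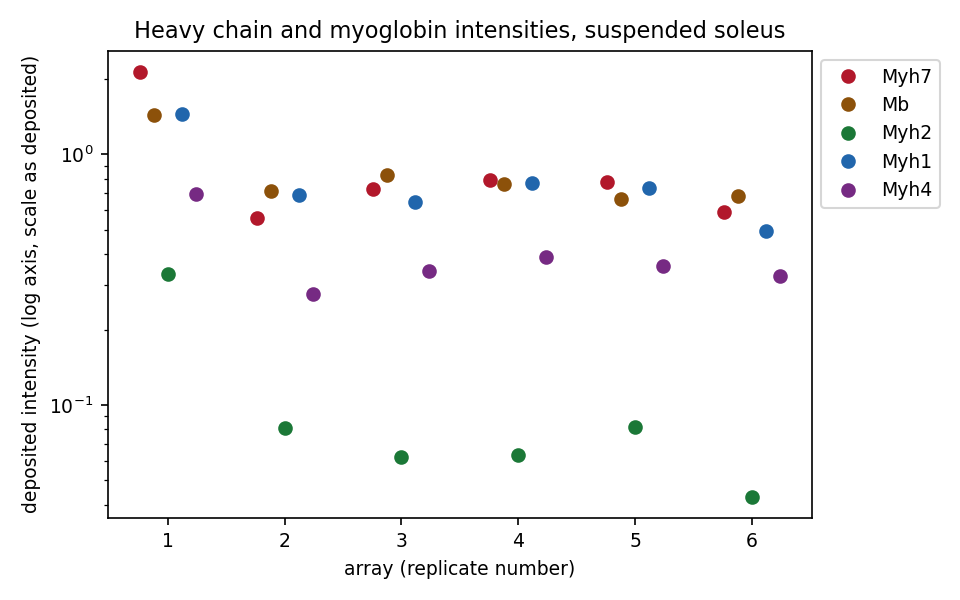
Deposited intensity (log axis) of the Myh7, Mb, Myh2, Myh1 and Myh4 probes on each of the 6 arrays of suspended soleus; points are single arrays, shifted sideways for legibility. Replicate 1 is highest for every probe, by 5.06 times the mean of the others for Myh2 and by 1.97 times for Mb.

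All 5 genes had replicate 1 above every other array, which held for 39.2% of the 171 measured probes. Among the 15 other probes at or above the mean level of Myh2, a subset chosen after the values were seen, it held for 11, or 73.3%, so most other bright probes had it too. The direction depended on the scaling for 3 of the 5. Replicate 1 minus the mean of the others was 1.12 for Myh7 and 1.85 for Myh2 on the log2 scale, and both stayed above 0 under each of the 8 other scalings. For Myh1 it was 0.62 but -0.22 relative to the reference genes. For Myh4 it was 0.52 but -0.063 with equal totals, and for Mb 0.46 but -0.12. By Dixon's ratio, which sets the gap of an extreme array against the whole range, replicate 1 was outlying for the levels of Myh7, Myh2 and Myh1. That is 3 of 5, where 13.5% of the measured probes had replicate 1, and 15.8% any array, as an outlying one. Under the 8 other scalings an outlying array, not always replicate 1, was called in 4 for Myh7, in 4 for Myh2 and in 1 for Myh1. For Myh1 this was quantile normalization, where replicate 1 was 0.11 above the mean of the others with an SD of 0.17. The array called there was thus not replicate 1.

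Within-array ratios need no scaling between arrays, and the make-up of the heavy chain signal was read from them. The ratio of Myh7 to Myh1, slow to IIx, was, on the log2 scale, 0.56 on replicate 1, -0.31 on replicate 2, 0.17 on replicate 3, 0.04 on replicate 4, 0.09 on replicate 5 and 0.24 on replicate 6. It averaged 0.13 ± 0.28 (SD, n = 6) and 0.05 ± 0.21 without replicate 1 (n = 5). Replicate 1 was the highest and replicate 2 the lowest.

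The ratio of Myh7 to Myh4, slow to IIb, was the steadiest of the 10 among the other 5 arrays. It was 1.62 on replicate 1, 1.01 on replicate 2, 1.08 on replicate 3, 1.02 on replicate 4, 1.12 on replicate 5 and 0.84 on replicate 6. The mean was 1.12 ± 0.27 with all arrays and 1.01 ± 0.11 without replicate 1, which was 0.61 above the rest. This array was thus richer in Myh7 signal relative to Myh4 by a factor of 1.52.

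The ratio of Myh2 to Myh1, IIa to IIx, separated replicate 1 more widely. It was -2.11 on replicate 1, -3.09 on replicate 2, -3.38 on replicate 3, -3.60 on replicate 4, -3.16 on replicate 5 and -3.52 on replicate 6. Replicate 1 was 1.24 above the mean of the others, which was -3.35 ± 0.22 (SD, n = 5), a factor of 2.36. With all arrays the mean was -3.14 ± 0.54.

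The other ratios with Myh2 also set replicate 1 at an end of their range. Myh7 to Myh2 averaged 3.28 ± 0.46 and lay between 2.67 on replicate 1 and 3.77 on replicate 6, with replicate 2 next to replicate 1 at 2.78. Myh2 to Myh4 averaged -2.16 ± 0.68 and ran from -2.93 on replicate 6 to -1.05 on replicate 1. Mb to Myh2 averaged 3.26 ± 0.68 and ran from 2.10 on replicate 1 to 3.99 on replicate 6 (SD, n = 6 each). Without replicate 1 the SDs of these 3 were still 0.39, 0.45 and 0.41 (n = 5), above those of the other 7 ratios.

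The ratios among Myh1, Myh4 and Mb did not set replicate 1 apart. Myh1 to Myh4 was 1.06 on replicate 1 against 0.60 to 1.31 elsewhere, Mb to Myh4 was 1.05 against 0.88 to 1.36, and Mb to Myh1 was -0.01 against -0.14 to 0.46. Their SDs over 6 arrays were 0.23, 0.18 and 0.24. Mb to Myh7 was -0.57 on replicate 1 against -0.23 to 0.36 elsewhere. Replicate 1 lay outside the range of the other arrays in each of the 7 ratios with Myh7 or Myh2 and in 0 of the 3 without them. The 7 of 10 compare with 65.9% of all 14535 ratios between measured probes and with 52.2% of the 180 others between probes at or above Myh2. Replicate 1 was outlying by Dixon's ratio for Myh7 to Myh4 and Myh2 to Myh1, 2 of 10 ratios. For each, an outlying array was called in 2 of the 3 other scalings that can change a ratio. The call was lost for Myh7 to Myh4 with the lowess curve removed (0.563) and for Myh2 to Myh1 with quantile normalization (0.456). Of all ratios 13% had replicate 1, and 15.3% any array, as an outlying one. The members share probes across ratios, so these are not independent counts.

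**Figure D2:**
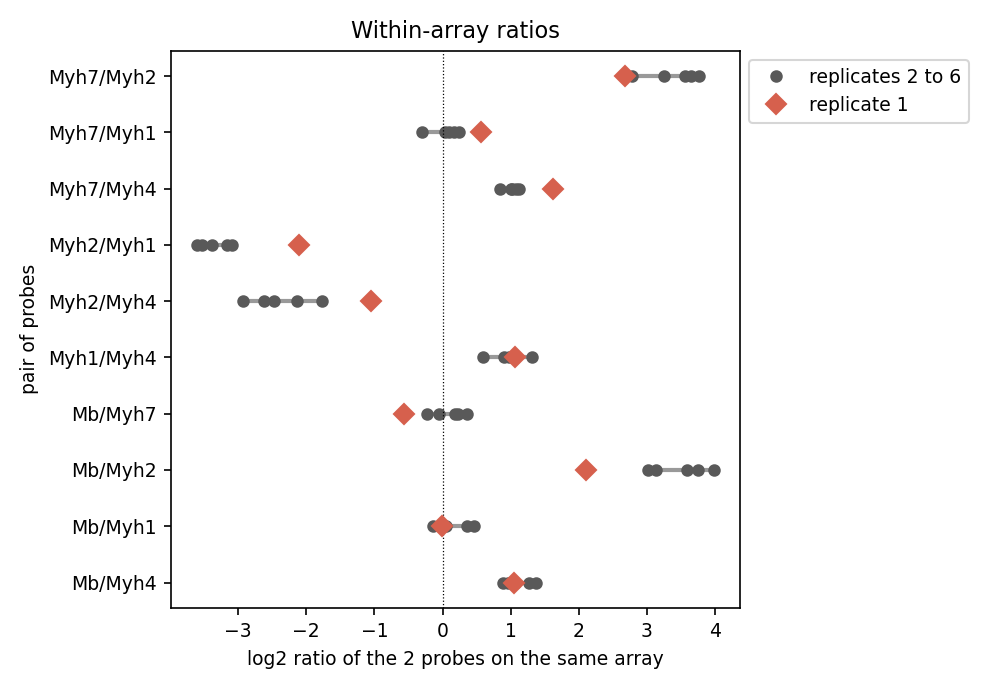
Log2 ratio of each pair of probes on the same array; grey points and bars are replicates 2 to 6 and their range, the red diamond is replicate 1, and the dotted line is a ratio of 1. Replicate 1 lies outside the others in the 7 pairs with Myh7 or Myh2 and inside them for Myh1/Myh4, Mb/Myh1 and Mb/Myh4. Of all 14535 ratios between measured probes, 65.9% have replicate 1 outside the others.

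As a share of the summed intensity of the 4 heavy chain probes, Myh7 gave 46.3% on replicate 1, 34.7% on replicate 2, 40.9% on replicate 3, 39.3% on replicate 4, 39.9% on replicate 5 and 40.3% on replicate 6. Replicates 3 to 6 thus lay within a narrow band, with replicate 1 above and replicate 2 below it. The Myh1 share ran the other way, at 31.4% on replicate 1, 42.9% on replicate 2 and between 34.1% and 38.2% on the rest. Shares are parts of 1 sum, so this is partly forced, and the Myh1 intensity itself was highest on replicate 1. Myh4 ran from 15.0% on replicate 1 to 22.5% on replicate 6, and Myh2 from 2.97% on replicate 6 to 7.27% on replicate 1. The mean shares were 40.3% ± 3.69 for Myh7, 36.7% ± 3.90 for Myh1, 18.7% ± 2.50 for Myh4 and 4.35% ± 1.62 for Myh2 (SD, n = 6). Without replicate 1 they were 39.1% ± 2.48, 37.8% ± 3.25, 19.4% ± 1.96 and 3.77% ± 0.858 (n = 5). Shares of signal are not shares of transcript or protein, because the probes differ, and they serve to compare arrays.

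**Figure D3:**
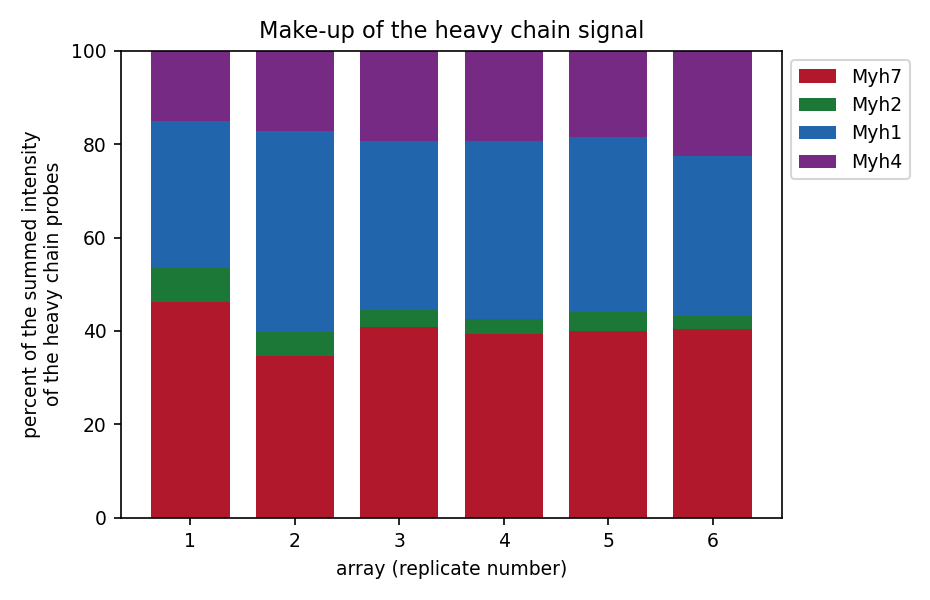
Stacked bars of the share of each heavy chain probe in the summed intensity of the heavy chain probes, 1 bar per array. The Myh7 part is 46.3% on replicate 1, 34.7% on replicate 2 and 39.3% to 40.9% on the others.

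The median spread of the heavy chains and myoglobin between arrays was below that of all measured probes, though not for each gene. The median SD of the 5 levels was 0.28 with all arrays and 0.17 without replicate 1, beside 0.48 and 0.34 over the 171 measured probes. For the 15 other probes at or above Myh2 the medians were 0.48 and 0.37. The 10 ratios had a median SD of 0.31, and 0.25 without replicate 1. Over all 14535 ratios these medians were 0.73 and 0.53, and over the 180 others between probes at or above Myh2 0.45 and 0.38. Myh2 had the largest SD of the 5 genes, at 0.82. Without replicate 1 it was 0.343, still above the median of 0.341 over the 171 probes. With all arrays the SD of Myh7, 0.476, was at the median of the 171 probes. Those of Myh1, Myh4 and Mb were below it.

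**Figure D4:**
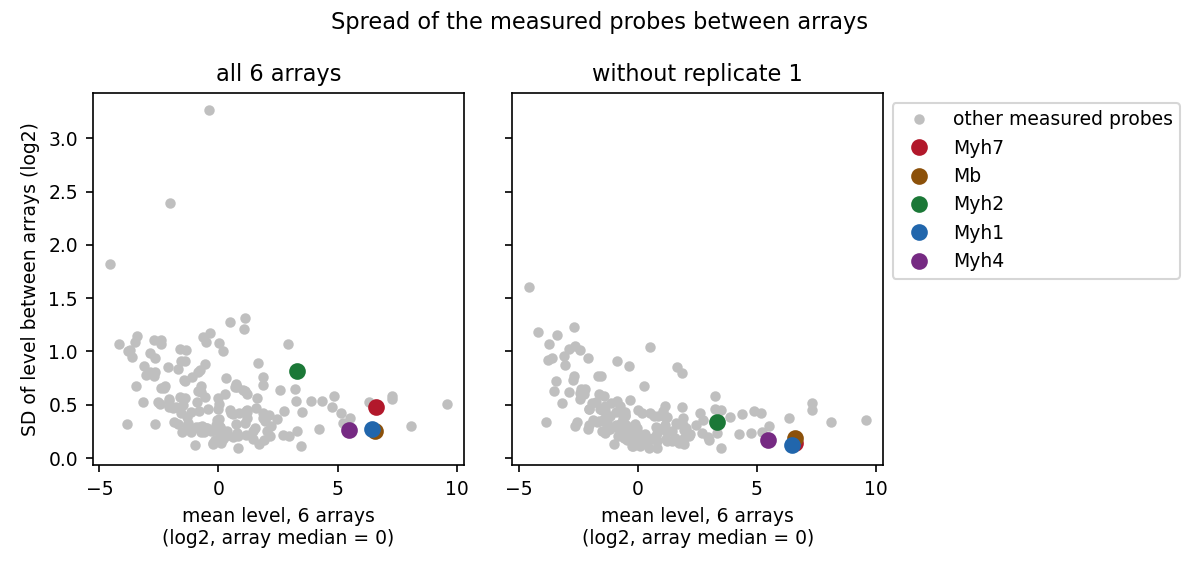
SD of the level between arrays against mean level for the 171 measured probes, with all 6 arrays (left) and without replicate 1 (right); grey points are other probes. Without replicate 1, Myh7, Myh1, Myh4 and Mb have SDs of 0.14, 0.13, 0.17 and 0.19, and Myh2 0.34.

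Of the 10 pairs, 2 passed the test for levels that varied together between arrays, both close to the threshold. Myh2 and Myh1 correlated at Pearson's r = 0.993 (exact permutation p = 0.0097; 0.049 after adjustment for 10 pairs). Spearman's rho was 0.829 (exact p = 0.058; 0.29 after adjustment). For Myh7 and Myh4, r was 0.901 (exact p = 0.0083; 0.049 after adjustment) and rho 0.943 (exact p = 0.017; 0.17 after adjustment). Tests were two-sided over all 720 pairings of the arrays. Of 16 alternatives, 1 kept the call for Myh2 and Myh1 (adjusted p from 0.0046 to 0.65) and 2 kept it for Myh7 and Myh4 (0.0046 to 0.95).

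Replicate 1 carried most of the remaining correlation. All 10 Pearson values were positive with all arrays, and 3 were positive without replicate 1. For Myh2 and Myh1 the value was then 0.958 (exact p = 0.058, adjusted 0.58), and without replicates 1 and 4, the arrays farthest from the median of Myh2, it was 0.985. For Myh7 and Myh4 it was 0.780 (exact p = 0.13, adjusted 0.67), and 0.595 without replicates 1 and 2. Leaving out any 1 array gave no adjusted p under 0.083, the smallest that a single pair can reach with 5 arrays, so the test could not be passed by 1 pair alone there. The value for Myh2 and Myh1 also rested on the scaling, with r from 0.414 to 0.694 over 6 arrays with equal totals, reference genes, quantile normalization or the lowess curve removed. Myh7 correlated with Myh2 at 0.875 and with Myh1 at 0.852 over 6 arrays, and at -0.193 and -0.260 without replicate 1. Neither passed the adjusted test (exact p = 0.11 and 0.12, adjusted 0.19 for each).

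Probes whose levels were most like each gene over the 6 arrays are given as a description, among 155 other named and measured probes. Mb was most like Mdh2, the mitochondrial malate dehydrogenase (r = 0.990), Tgfb1, a growth factor (0.954), and Cox8a, a cytochrome oxidase subunit (0.936). Myh4 was most like Cox6a2, another oxidase subunit (0.995), the protease inhibitor Timp1 (0.985) and the lactate dehydrogenase subunit Ldhb (0.968). For both, 2 of the 3 were again among the nearest without replicate 1. The values rested on the scaling: that of Mb with Mdh2 was 0.08 with quantile normalization, and that of Myh4 with Cox6a2 was -0.53.

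Myh7 was most like the laminin chain Lamc1 (0.990), the kinase Dmpk (0.964) and the integrin subunit Itgb1 (0.964). Without replicate 1 the nearest were Myod1, a myogenic transcription factor, Lama2, another laminin chain, and Dgat1, a triglyceride synthesis enzyme (0.964, 0.906 and 0.905). Over all 6 arrays their values were 0.216, -0.052 and 0.475. Myh2 was most like Csf2ra, a cytokine receptor chain (0.946), Fabp4, a fatty acid binding protein (0.931), and Igfbp4, which binds insulin-like growth factors (0.930). Myh1 was nearest to the same probes in another order (0.913, 0.888 and 0.954). Without replicate 1 the nitric oxide synthase Nos2 came first for both Myh2 and Myh1 (0.980 and 0.994). The 28S ribosomal RNA probe followed for Myh2 (0.952) and the integrin subunit Itga8 for Myh1 (0.992). Over all 6 arrays the sign turned, to -0.850 and -0.829 for Nos2, -0.290 for the 28S probe and -0.325 for Itga8. Nos2 was a dim probe, with a mean level of -2.04 and an SD of 2.39. None of the 3 probes nearest to Myh7, Myh2 or Myh1 remained the same without replicate 1. By this correlation with all arrays, no other named probe was as close to Myh2 as Myh1 was. By the SD of the within-array ratio Csf2ra was closer to Myh2, at 0.36 against 0.54 for Myh1.

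**Figure D5:**
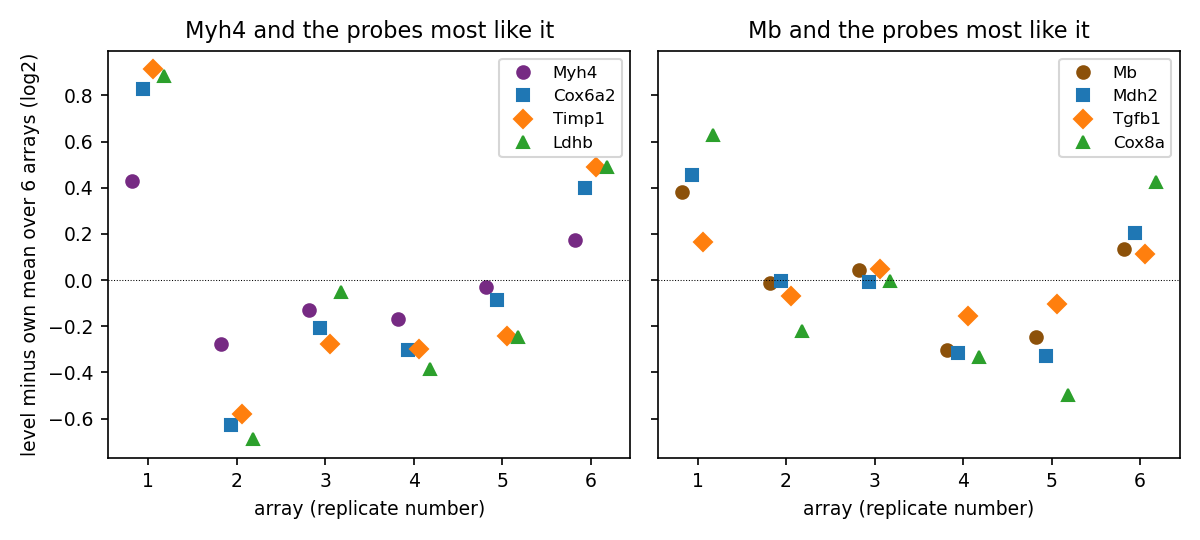
Level minus its own mean over the 6 arrays for Myh4 with Cox6a2, Timp1 and Ldhb (left) and for Mb with Mdh2, Tgfb1 and Cox8a (right); each point is 1 array, shifted sideways for legibility. Both groups are highest on replicate 1, and replicate 6 is the next highest for Myh4 and for Mb.

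By the SD of the within-array ratio, a measure added after the values were seen and free of the scaling between arrays, the nearest probe was again Mdh2 for Mb and Csf2ra for Myh2, and another for Myh7, Myh1 and Myh4. Mb to Mdh2 had an SD of 0.06 and lay between 4.31 and 4.46 on all 6 arrays, the smallest SD of the 14535 ratios. The nearest probe to Myh7 was Des, the intermediate filament protein desmin (SD 0.14, between 1.65 and 1.99). For Myh1 it was Ttn, the giant sarcomere protein titin (SD 0.16), and for Myh4 Ucp3, a mitochondrial carrier (SD 0.10). Cox4i1, a cytochrome oxidase subunit, followed for Myh4 at 0.11. For Myh2 the smallest SD was 0.36, with Csf2ra. These partners were picked over all 6 arrays, so a steady ratio on replicate 1 was part of the choice. Picked without replicate 1, the nearest were Ppara, a nuclear receptor of fat oxidation, for Myh7, and Il6ra, the interleukin 6 receptor, for Myh1. On replicate 1 these ratios lay outside the others, at 7.23 against 6.25 to 6.43 and at 7.65 against 6.51 to 6.75. Mb to Mdh2 remained the nearest pair for Mb, with replicate 1 at 4.306 and the others from 4.307 to 4.464. With quantile normalization the SD of Mb to Mdh2 was 0.29 and that of Myh7 to Des 0.25.

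Other contractile genes were few on the array. Of 17 genes listed for slow fibres, Myh7 and Mb were probed, and Mb is not a contractile gene. Of 17 fast contractile genes Myh1, Myh2 and Myh4 were probed, and of 9 developmental and denervation genes 0. Of 18 genes of general muscle structure 3 were probed, and Des and Ttn were highest on replicate 1, at 5.64 and 5.72 against at most 4.79 and 5.57 elsewhere. The muscle calpain Capn3 was not, at -2.15 against up to -1.77. Among regulators of fibre type and oxidative capacity, 9 of 10 probed were measured and 3 were highest on replicate 1. Mef2c, a transcription factor of muscle genes, was at 3.63 there and 3.34 to 3.56 on the others. Srf, a factor for cytoskeletal genes, was at 0.72 against 0.68 to 3.02, and the myogenic factor Myf6 at 1.12 against 0.42 to 0.90.

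Markers of metabolism and of other cells are given beside the shares over all measured probes, of which 39.2% had replicate 1 as the highest array and 28.1% as the lowest. Replicate 1 was highest in 6 and lowest in 2 of 12 mitochondrial genes, highest in 5 and lowest in 0 of 8 glycolytic, highest in 4 and lowest in 1 of 6 matrix, and highest in 3 and lowest in 0 of 4 reference genes. Of 5 measured endothelial genes, it was highest in 0 and lowest in 3. Their summed intensity was 0.071 on replicate 1 and 0.070 to 0.087 on the others. The sum of Myh1, Myh2 and Myh4 was 2.47 against 0.867 to 1.22, and that of Myh7 and Mb 3.57 against 1.27 to 1.55. Both of these sums restate the intensities given above. Fabp4, the only probed gene of the fat and nerve list, was at 2.87 against 1.70 to 2.23. The immune genes Il6 and Il1b, the only ones probed of 9, were not above 0 on all arrays. The part of these differences in the heavy chain values was not tested.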

How the data were processed

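RNA of suspended soleus was hybridised to 6 arrays. The authors deposited 1 linear intensity per probe and array; 171 of the 1338 values lie at or below 0, which shows, per the values of the deposited table, that background had been subtracted. The sources used here do not give array maker, scanner or scaling. Probes were named through the platform annotation: 205 of 223 have 1 symbol and 18 have none here. Probes above 0 on all arrays were kept, log2 was taken without a pseudocount (0), and the array median was subtracted. With no second group, no difference between conditions was tested. Correlations were tested by exact permutation over 10 pairs, adjusted by Benjamini-Hochberg at 0.05. The tests were run on simulated normal values without centring or an array shift shared by all probes. That check does not cover an array like replicate 1. An array was called outlying above Dixon's ratio of 0.625 for 6 arrays (0.71 for 5). The number of arrays limits the precision. Genes named were the 5 members, the 3 probes most correlated with each over 6 and over 5 arrays, and up to 3 measured genes of highest mean from each of 12 lists; any other was named after its values were seen. The members and lists were chosen with earlier results of these data known. Alternatives were 5 other centrings, quantile normalization, a lowess curve (fraction 0.667), a background offset and leaving out each array. Python 3.11.15, numpy 2.4.6, pandas 2.3.3 and statsmodels 0.14.6 were used.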

Additional observations from a re-analysis of the deposited data

Results flagged for a closer look

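Below are the values in which an extreme array stood off from the rest by more than the 95% limit of Dixon's ratio, as about 1 group in 20 does by chance. The outlying array was replicate 1 in each. For the deposited intensities the ratio was 0.850 for Myh7, 0.867 for Myh2, 0.715 for Myh1, 0.728 for Myh4 and 0.785 for Mb. The share of all probes so called was not computed for intensities, whose sum was 37.5 on replicate 1 and 15.3 to 18.5 elsewhere. The calls on intensities are therefore not read as particular to these genes, and 1 in 20 is not the share to set them against. For the levels it was 0.729 for Myh7, 0.659 for Myh2 and 0.638 for Myh1. Of all 171 measured levels, 15.8% had an outlying array and 13.5% had replicate 1 as that array. Of the 10 ratios, Myh7 to Myh4 reached 0.644 and Myh2 to Myh1 0.653. Over all ratios these shares were 15.3% and 13%. Without replicate 1, the share of Myh7 in the heavy chain signal had replicate 2 as an outlying array, at 34.7% against 39.3% to 40.9% (Dixon's ratio 0.742). It was the only level, ratio or share called without replicate 1.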

How the results depend on the processing

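No paired analysis was possible because there is 1 group. The mean ratios and shares kept their value within 1 SD under quantile normalization, the lowess curve and the background offset. They did so too on leaving out 1 array, which cannot move a mean over 6 arrays by 1 SD and so is no check. The SDs of the 10 ratios stayed within 1.5 times under quantile normalization, the lowess curve and the background offset, but 4 fell by more without replicate 1 and 1 without replicate 6. Leaving out 1 array, they ran from 0.11 to 0.30 for Myh7 to Myh4, 0.22 to 0.61 for Myh2 to Myh1, 0.45 to 0.76 for Myh2 to Myh4, 0.41 to 0.75 for Mb to Myh2 and 0.15 to 0.26 for Myh1 to Myh4. Those of the levels ran from 0.14 to 0.53 for Myh7, 0.34 to 0.91 for Myh2, 0.13 to 0.31 for Myh1 and 0.17 to 0.29 for Myh4. Over 6 arrays the SD of the level moved by over 1.5 times without centring for Myh1, Myh4 and Mb (0.51, 0.45 and 0.42), with equal totals for Myh7, Myh1 and Mb (0.30, 0.14 and 0.11), relative to the reference genes for Myh7 (0.26), with quantile normalization for Myh7, Myh1, Myh4 and Mb (0.24, 0.17, 0.11 and 0.12) and with the lowess curve removed for Myh7, Myh4 and Mb (0.29, 0.11 and 0.079). Replicate 1 stayed outside the others in 7 of 10 ratios under quantile normalization, the lowess curve and the background offset. Centring cannot change a ratio. The number of correlated pairs, 2, was 1 without centring, 10 relative to the 28S ribosomal RNA probe and 0 under the other 14 alternatives. The 28S values are deposited with fewer decimals, and centring on it raised the SD of the level to 0.96 for Myh7, 0.72 for Myh1, 0.78 for Myh4 and 0.72 for Mb. With no filter on dim probes the mean level was 6.82 for Myh1, 5.84 for Myh4 and 6.94 for Mb, since the array median then includes dimmer probes. Myh2 with Myh1 had r = 0.969 without centring. The Pearson values of Myh7 with Myh4 and of Myh2 with Myh1 were 0.472 and 0.414 with equal totals; 0.364 and 0.519 relative to the reference genes; 0.066 and 0.694 with quantile normalization. They were 0.748 and 0.586 with the lowess curve removed; 0.886 and 0.977 with the background offset; 0.942 and 0.914 with no filter; and 0.595 and 0.985 without the 2 arrays farthest from the median. By Spearman rank they were 0.943 and 0.829. With equal totals, the sign turned for Myh2 with Myh4, Mb with Myh7, Mb with Myh2 and Mb with Myh1 (-0.338, -0.275, -0.769 and -0.742). Relative to the reference genes, the sign turned for Myh2 with Myh4, Mb with Myh7 and Mb with Myh2 (-0.041, -0.064 and -0.035). With quantile normalization, the sign turned for Myh2 with Myh4, Mb with Myh7, Mb with Myh2, Mb with Myh1 and Mb with Myh4 (-0.201, -0.680, -0.205, -0.318 and -0.654). With the lowess curve removed, the sign turned for Mb with Myh7, Mb with Myh2, Mb with Myh1 and Mb with Myh4 (-0.659, -0.175, -0.239 and -0.916). Without the 2 arrays farthest from the median, the sign turned for Myh2 with Myh4, Myh1 with Myh4, Mb with Myh7, Mb with Myh2 and Mb with Myh1 (-0.715, -0.160, -0.295, -0.725 and -0.715). Replicate 1 minus the mean of the others turned negative for Myh4 and Mb with equal totals (-0.063 and -0.12), Myh1, Myh4 and Mb relative to the reference genes (-0.22, -0.32 and -0.37), Myh4 and Mb with quantile normalization (-0.092 and -0.13) and Mb with the lowess curve removed (-0.051). Leaving out 1 array at a time left 0 correlated pairs each time, with r from 0.780 to 0.996 for Myh7 with Myh4 and 0.958 to 0.998 for Myh2 with Myh1; with 5 arrays the number of pairings limits the p. The sign turned without replicate 1 alone for 7 pairs, whose ranges were -0.193 to 0.984 (Myh7 with Myh2), -0.260 to 0.973 (Myh7 with Myh1), -0.443 to 0.870 (Myh2 with Myh4), -0.471 to 0.851 (Myh1 with Myh4), -0.013 to 0.799 (Mb with Myh7), -0.108 to 0.836 (Mb with Myh2) and -0.306 to 0.771 (Mb with Myh1). Of the 15 probes most like the genes, 4 were the same without replicate 1 and 4 by the SD of the ratio, a measure added after the data were seen. The cause of these changes was not tested. The background offset alone took the correlated pairs from 2 to 0, with an adjusted p of 0.083 for both, and 6 arrays limit the precision.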
